A study of Mus musculus with 6 samples.

Results

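The motile cilia and axoneme genes of the mouse lung were examined in TSPO KO and WT animals by RNA-seq of whole lung tissue. The set held 39 gene symbols, chosen by name as genes of the ciliary axoneme, its dynein motors and its regulators. Where a gene had more than 1 transcript, the one with the largest total count over all 6 libraries stood for it, and the KO and WT difference played no part. Of these, 30 were listed under the same symbol among the 23473 genes of the count table. Another 7, the dynein heavy chains Dnah1, Dnah2, Dnah5, Dnah6, Dnah9, Dnah10 and Dnah11, were listed under older symbols and were matched by transcript accession. Dnah3 and Dnah12 could not be matched and were not analysed here. All 37 matched genes had enough counts to be tested. Counts given for 30 genes refer to the symbols as listed, and counts for 37 genes include the 7 heavy chains.

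There were 3 KO and 3 WT libraries, each made from lung RNA pooled from 3 littermates, so 9 mice of each genotype contributed. The labels give all mice as C57BL/6 and 6 to 8 weeks old, and the methods give the floxed and Cre lines as C57BL/6J. KO mice were homozygous for a TSPO allele whose floxed exons 2 and 3 had been removed in the germ line by Protamine-Cre, a Cre driven by a sperm-specific promoter, so the deletion was present in every tissue. WT mice carried intact TSPO. TSPO is a protein of the outer mitochondrial membrane that binds cholesterol. Only 1 tissue and 1 age were sampled.

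Motile cilia are the beating hair-like projections that cover the multiciliated cells of the airway and move mucus out of the lung. Their core, the axoneme, is a ring of doublet microtubules around a central pair. Outer and inner dynein arms slide the doublets against each other, while radial spokes and nexin-dynein links control the sliding. Foxj1, a forkhead transcription factor, and the RFX factors switch on this gene set when an airway cell becomes ciliated. Multiciliated cells line the conducting airways, and whole lung tissue holds many more alveolar and vascular cells.

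RFX factors bind a DNA element called the X-box, built of half-sites. Its letters were looked for in the RefSeq promoter windows of the GRCm38.p6 build. A window runs from 250 bases before to 50 bases after an annotated start, and a gene can have several starts. A window was at hand for 32 of the genes. The half-site GTTGCC was present on either strand in 19 of the 32 (59.4%), against 14.1% of all 27025 genes with a window. Among all windows whose GC content lay between the quartiles of the cilia gene windows, 14.4% held it. The stricter palindrome of paired RFX half-sites was in none of the 32, against 0.529% of all genes. A half-site followed after 1 to 3 bases by GCAAC, its mirror, was in 4 of the 32 (12.5%; Dnaic2, Dynlrb2, Hydin and Tekt2) against 0.337% of all genes. This last motif was chosen after the sequences had been read and contains the first. The forkhead core TGTTTAC was in 3 of the 32 (9.38%; Ak7, Mlf1 and Sntn), against 4.05% of all genes. A match is a description of letters, not evidence of binding.

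The stretches below each lie upstream of an annotated start of the gene. That of Dnaic2 lies inside the span of the gene, before a later start. These genes carry the mirrored half-site (Dynlrb2, Dnaic2, Tekt2), varied most between libraries (Sntn, Mlf1), or encode an RFX factor themselves (Rfx2). Each reads 5′ to 3′ on the strand named, with the half-site in capitals.
Dynlrb2 (chr8:116504952-116504981, plus strand): acttcctgcctgGTTGCCtagcaacggggg
Dnaic2 (chr11:114727381-114727410, minus strand): cggagtttaccaGTTGCCtagcaaccctgg
Tekt2 (chr4:126325693-126325722, plus strand): tttgcggctctgGTTGCCgagcaaccgccc
Sntn (chr14:13670798-13670827, plus strand): tgtcattattcaGTTGCCatggaatgaatg
Mlf1 (chr3:67373980-67374009, plus strand): gtgtttacagagGTTGCCatagcagccgag
Rfx2 (chr17:56831107-56831136, minus strand): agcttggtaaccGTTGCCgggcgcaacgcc

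The libraries held between 9617086 and 11942318 counts over genes. Tspo itself, given as the check of the labels, had 21.6, 21.7 and 19.7 CPM (counts per 1000000 counts of the library, its total scaled by the trimmed mean of M-values, TMM) in KO lungs, against 156, 153 and 153 CPM in WT lungs, a log2 fold change of -2.87 (SE 0.10, edgeR's quasi-likelihood test, adjusted p = 1.42e-07). WT library 3 stood apart in that the ribosomal precursor Rn45s took 11.4% of its gene counts, against 0.224% to 0.427% in the other 5. WT library 2 stood apart in the summed level of 5 skeletal muscle markers, which was 192 CPM there and 16.5 to 21.9 CPM in the other 5 libraries. Summed markers of lung epithelium were high throughout, with 5 alveolar type 1 markers at 4045, 4312 and 4070 CPM in KO lungs and 3636, 4125 and 3770 CPM in WT lungs. Sperm also use axonemal genes, and 5 male germ cell markers together reached at most 0.117 CPM in any library.

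The 37 cilia genes were readily measured, with 38 to 5448 counts per gene and library. Levels differed widely between genes once divided by transcript length. Tppp3, a tubulin-binding protein that is abundant in ciliated cells, was the highest at 389 CPM per kb in KO lungs and 369 CPM per kb in WT lungs. It alone made up 30.9% to 36.5% of the summed CPM of the 37 genes. Dynlrb2, a roadblock-type dynein light chain, came second at 49.2 CPM per kb in KO lungs and 49.2 CPM per kb in WT lungs. Foxj1 followed with 37.2 in KO lungs and 30.8 in WT lungs, and the spoke head gene Rsph1 with 26.5 in KO lungs and 24.2 in WT lungs, all in CPM per kb. A further 20 genes lay between 5 and 20 CPM per kb on average, and 13 lay under 5. The lowest were Dnah1, an inner arm dynein heavy chain (1.16 CPM per kb in KO lungs, 1.17 in WT lungs), and Lrriq1, a leucine-rich repeat and IQ motif protein (1.21 in KO lungs, 1.25 in WT lungs). For 29 of the 36 pairs of neighbours in this order, the gap was smaller than the within-genotype SD of at least 1 of the 2 genes on the log2 scale, so their order is not settled by these libraries. The design text names tag profiling while the methods give paired-end reads, and levels per kb hold only if reads came from along the whole transcript.

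**Figure D1:**
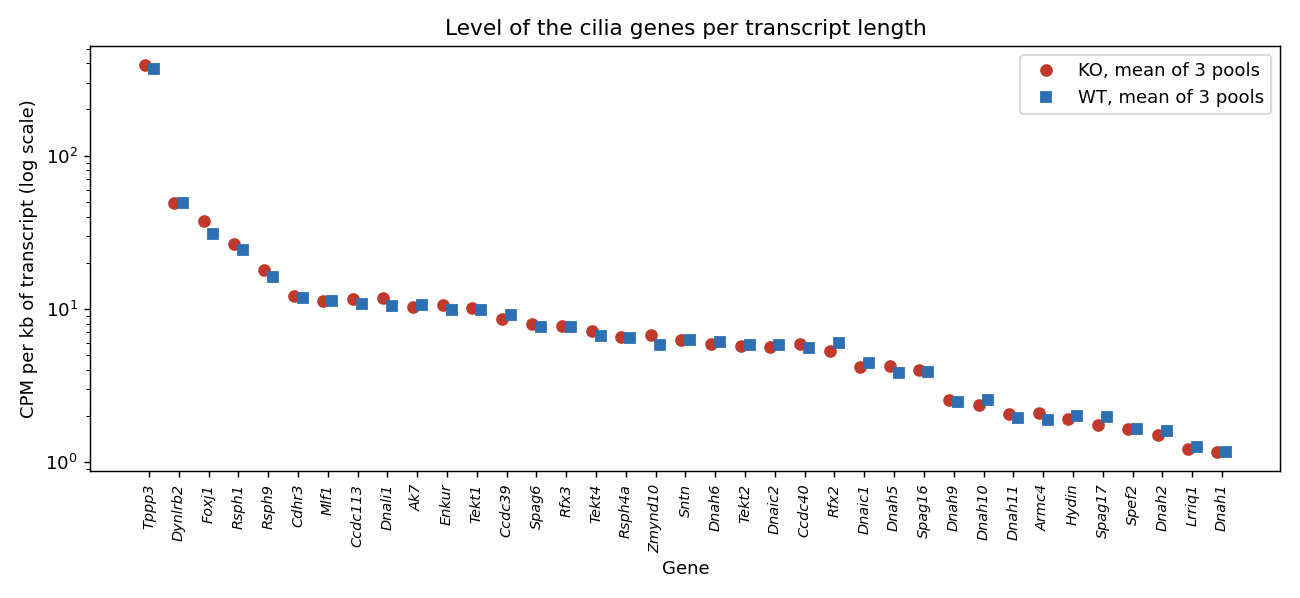
Mean level of each of the 37 cilia genes in CPM per kb of transcript (log axis), with KO lungs as circles and WT lungs as squares, ordered from highest to lowest. Tppp3 stands far above the rest, and the KO and WT symbols of each gene lie close together.

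The first question was whether loss of TSPO changed the cilia genes. None of the 30 genes, and none of the 37, passed edgeR's quasi-likelihood test at an adjusted p of 0.05. The background was low as well: 1 of 14802 tested genes passed, or 0.00676%, and that gene was Tspo. At an unadjusted p under 0.05 the count was again 0 of 37, against 1.88% of all tested genes. No cilia gene had KO and WT libraries that did not overlap, against 5.46% of all tested genes. DESeq2, the edgeR exact test and limma-voom also called 0 of them.

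The size of any difference was limited. The median log2 fold change was 0.04 over the 30 genes and 0.03 over the 37, against 0.0022 over all tested genes. Single genes ranged from -0.17 (Rfx2) to 0.27 (Foxj1), with 24 of the 37 (64.9%) higher in KO lungs and 13 lower. Of all tested genes, 50.8% were higher in KO lungs. For 37 of 37 cilia genes, and for 93.2% of all tested genes, a 2-fold rise and a 2-fold drop both lay outside the 95% confidence interval. A 1.5-fold change either way lay outside it for 27 of the 37, against 75.5% of all tested genes. A change inside these intervals was not detectable with 3 libraries a side. The direction of the median turned with single libraries: it was -0.13 without WT library 2, 0.24 without WT library 1 and -0.04 without KO library 2 (30 genes).

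**Figure D2:**
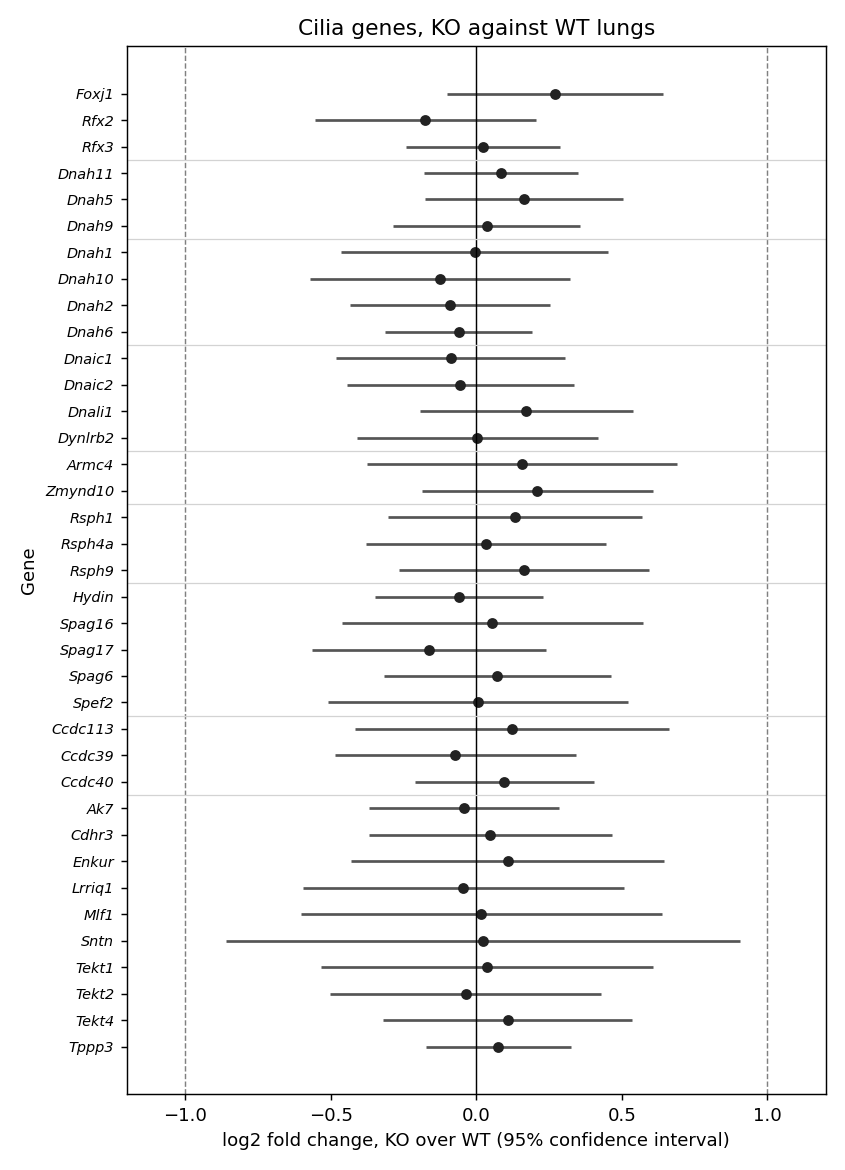
Log2 fold change of each cilia gene in KO over WT lungs (points) with its 95% confidence interval (lines), grouped by role; dashed lines mark a 2-fold change. The points lie between -0.17 and 0.27, every interval crosses 0, and none reaches a dashed line.

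The 3 transcriptional regulators did not pass the test and did not share a pattern. Foxj1, the forkhead factor required for motile cilia, had 91.2, 93.6 and 108 CPM in KO lungs, against 103, 79.9 and 59.2 CPM in WT lungs. Its KO libraries lay together while the WT libraries spread, and WT library 1 reached into the KO range. The log2 fold change was 0.27 (SE 0.17), the largest of the set, with an adjusted p of 0.9999 by edgeR's quasi-likelihood test. Without WT library 1 it was 0.49 and without WT library 3 it was 0.10, and it did not pass in either case.

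Rfx2, an X-box binding factor, had 15.5, 15.8 and 22.0 CPM in KO lungs, against 21.4, 22.1 and 16.4 CPM in WT lungs. KO library 3 lay among the WT libraries and WT library 3 among the KO libraries, and the log2 fold change was -0.17 (SE 0.17). Rfx3, the related factor, had 22.0, 19.95 and 21.2 CPM in KO lungs, against 20.3, 19.4 and 22.5 CPM in WT lungs. It was the steadiest gene of the set, with a 1.16-fold range over all 6 libraries and a log2 fold change of 0.02 (SE 0.12).

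Of the outer arm heavy chains, the motors that drive the beat, Dnah5 was the highest per kb. It had 57.6, 74.6 and 66.6 CPM in KO lungs, against 72.7, 47.6 and 57.1 CPM in WT lungs, with a log2 fold change of 0.16 (SE 0.15). The overlap of the groups came from WT library 1, which exceeded 2 of the 3 KO libraries. Dnah9 lay between 30.6 and 41.5 CPM and Dnah11 between 24.9 and 31.2 CPM over the 6 libraries, with log2 fold changes of 0.04 (SE 0.15) and 0.08 (SE 0.12).

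The inner arm heavy chains shape the bend of the cilium. Dnah6 had 76.0, 76.6 and 69.8 CPM in KO lungs, against 88.8, 68.5 and 74.4 CPM in WT lungs, with a log2 fold change of -0.06 (SE 0.12). Dnah1, Dnah2 and Dnah10 had log2 fold changes of -0.01 (SE 0.21), -0.09 (SE 0.16) and -0.12 (SE 0.20). All 4 inner arm chains had their highest level in WT library 1.

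Among the smaller dynein subunits, Dynlrb2 had 24.3, 29.5 and 22.1 CPM in KO lungs, against 31.0, 17.9 and 27.1 CPM in WT lungs. The WT libraries held both the highest and the lowest value, and the log2 fold change was 0.0038 (SE 0.19). Dnali1, an inner arm light intermediate chain, had 22.9, 26.2 and 25.7 CPM in KO lungs, against 27.9, 17.05 and 21.5 CPM in WT lungs, with a log2 fold change of 0.17 (SE 0.17). Dnaic1 and Dnaic2, the outer arm intermediate chains, had values of -0.09 (SE 0.18) and -0.05 (SE 0.18) on the same scale.

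Dynein arms are assembled in the cytoplasm before they enter the cilium, and Zmynd10 takes part in that step. It had 11.1, 12.9 and 11.8 CPM in KO lungs, against 13.02, 9.17 and 8.66 CPM in WT lungs. WT library 1 lay above every KO library, and WT libraries 2 and 3 lay below all of them. The log2 fold change was 0.21 (SE 0.18). Over 10.1% of its exon bases it overlaps Gm34106 on the other strand. Armc4, a docking protein of the outer arm, lay between 5.38 and 8.68 CPM, with a log2 fold change of 0.16 (SE 0.24).

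The radial spoke head genes behaved alike in the libraries. Rsph1 had 33.5, 33.0 and 27.9 CPM in KO lungs, against 37.4, 19.1 and 29.8 CPM in WT lungs, with a log2 fold change of 0.13 (SE 0.20). Rsph4a and Rsph9 had log2 fold changes of 0.03 (SE 0.19) and 0.16 (SE 0.20). All 3 were highest in WT library 1 and lowest in WT library 2.

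Of the central pair genes, Spag6 was the highest per kb, with 19.3, 21.4 and 17.02 CPM in KO lungs, against 21.0, 13.4 and 20.7 CPM in WT lungs. Its log2 fold change was 0.07 (SE 0.18), and WT library 2 was the one low value. The transcript measured here is the one that RefSeq now names Spag6l, while the gene that RefSeq now names Spag6 had at most 4 counts in any library. Spag16, Hydin, Spef2 and Spag17 had log2 fold changes of 0.06 (SE 0.23), -0.06 (SE 0.13), 0.0064 (SE 0.23) and -0.16 (SE 0.18). Spag17 shares 9.66% of its exon bases with Wdr3 on the other strand.

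Ccdc39 and Ccdc40 form the molecular ruler that sets the spacing of arms and spokes along a doublet. Their log2 fold changes were -0.07 (SE 0.19) and 0.10 (SE 0.14), with levels of 22.7 to 38.6 CPM and 22.7 to 32.3 CPM over the 6 libraries. Ccdc39 shares 16.9% of its exon bases with Ttc14 on the other strand. Ccdc113, a coiled-coil protein of motile cilia, was the highest per kb of this group. It had 14.3, 18.5 and 12.004 CPM in KO lungs, against 18.99, 9.17 and 13.1 CPM in WT lungs, with a log2 fold change of 0.12 (SE 0.25).

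The remaining 10 genes encode tektins, which are filaments inside the doublets, and other axonemal or apical proteins. Tppp3 had 420, 451 and 444 CPM in KO lungs, against 465, 400 and 381 CPM in WT lungs, with a log2 fold change of 0.08 (SE 0.11). Its 6 libraries lay within a narrow band, and WT library 1 was again the highest. Sntn, a protein of the ciliary tip, had 9.06, 9.52 and 4.82 CPM in KO lungs, against 12.9, 3.29 and 6.90 CPM in WT lungs. Its log2 fold change was 0.02 with the largest standard error of the set (SE 0.40), and WT library 2 rested on 38 counts. Mlf1, a gene of ciliated cells, had 12.9, 12.9 and 11.8 CPM in KO lungs, against 16.9, 6.23 and 14.3 CPM in WT lungs. Its KO libraries nearly coincided, while WT library 2 lay well below all the others. Sntn and Mlf1 were singled out after their values had been seen.

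The tektins Tekt1, Tekt2 and Tekt4 had log2 fold changes of 0.04 (SE 0.26), -0.04 (SE 0.21) and 0.11 (SE 0.19). Tekt2 shares 20.8% of its exon bases with Gm12945 on the other strand. Cdhr3, a cadherin of ciliated airway cells, and Ak7, an adenylate kinase of the cilium, lay at 26.0 to 46.7 CPM and 25.5 to 37.2 CPM, with log2 fold changes of 0.05 (SE 0.19) and -0.04 (SE 0.15). Enkur, a protein inside the doublet microtubules, and Lrriq1 had values of 0.11 (SE 0.24) and -0.04 (SE 0.25) on the same scale. The strand setting of the counting is not given in the sources used here, so reads of the 4 genes with an overlap of over 5% on the other strand may be shared.

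**Figure D3:**
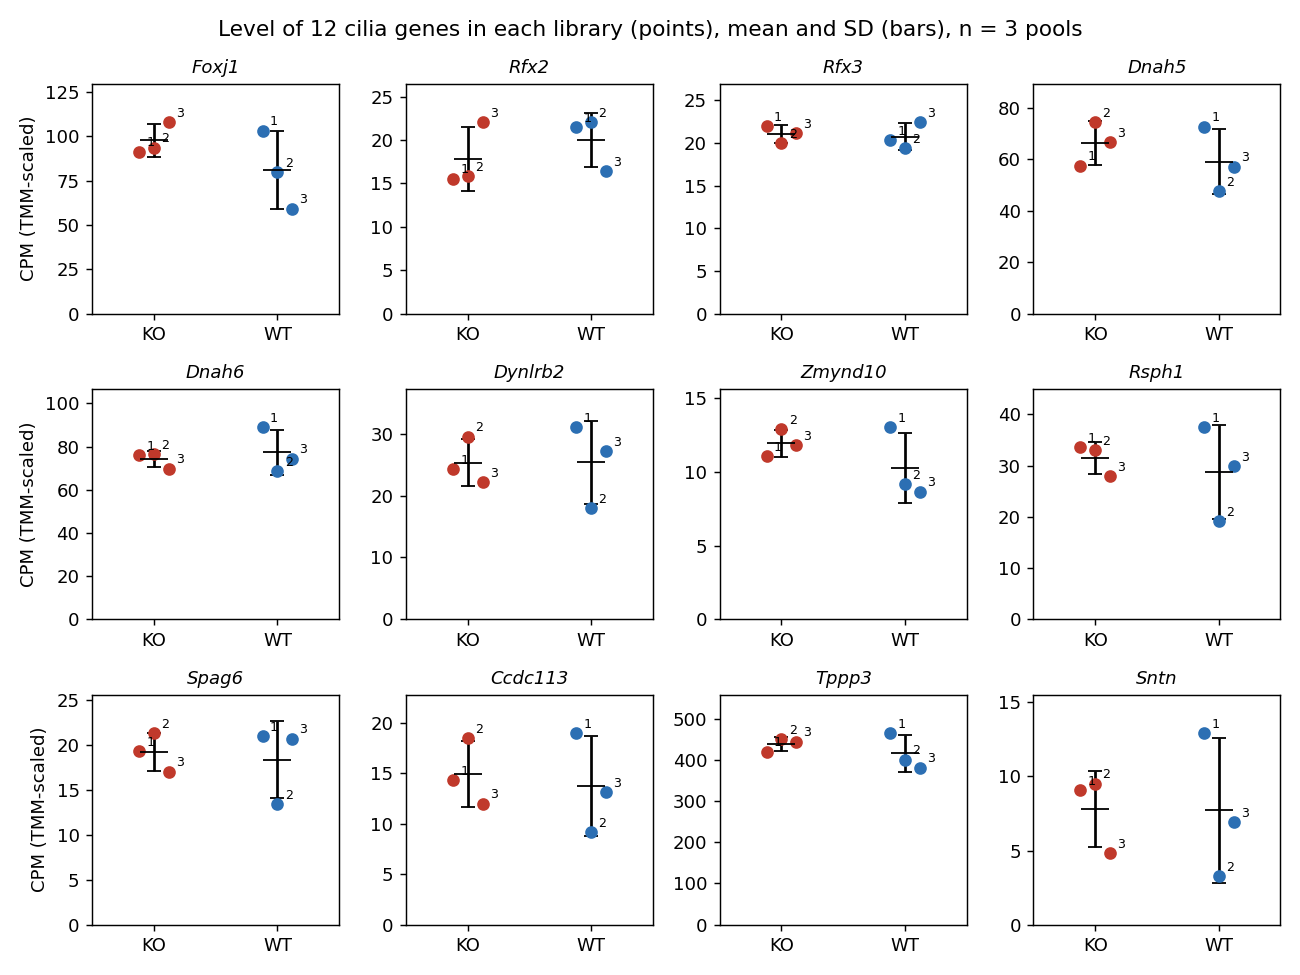
CPM of 12 cilia genes in each library (points, numbered by replicate) with mean and SD (bars, n = 3 pools a genotype), KO left of WT, each axis from 0. KO and WT points overlap for every gene, and for most of them the WT points span a wider range than the KO points.

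The second question was how the cilia genes varied from library to library. The clearest pattern lay within the WT lungs. WT library 1 exceeded WT library 2 for 29 of the 30 genes (96.7%), against 50.4% of all tested genes, by a median of 1.61-fold, against 1.002-fold over all tested genes. The exception was Rfx2, at 0.971-fold, and the widest gap was that of Sntn, at 3.93-fold. WT library 1 held the highest of the 6 values for 23 of the 30 genes (76.7%; 15.1% of all tested genes). WT library 2 held the lowest for 21 of the 30 (70.0%; 19.4% of all tested genes). Both were true of 16 (53.3%), against 3.70% of all tested genes. The pattern was noticed in these data, and the genes share cells and libraries, so these shares are a description.

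Within the KO lungs many of these genes also differed between libraries in 1 direction. KO library 2 exceeded KO library 3 for 26 of the 30 genes (86.7%), against 49.6% of all tested genes, by a median of 1.25-fold. The dynein heavy chains and the regulators did not share this: KO library 2 exceeded KO library 3 for 3 of the 7 heavy chains, at a median of 0.992-fold, and for 0 of the 3 regulators. Over the 37 genes the count was 29 (78.4%), with a median of 1.18-fold. The median SD of log2 CPM was 0.20 among KO libraries and 0.39 among WT libraries for the 30 genes, against 0.16 and 0.17 for all tested genes, a difference between genotypes that was not tested. In bulk tissue, fewer ciliated cells and less RNA of these genes per cell cannot be told apart.

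The regulators showed less of the WT pattern, a difference over 3 genes that was not tested. None of the 3 was highest in WT library 1, and 1 of the 3, Rfx3, was lowest in WT library 2. Foxj1 was highest in KO library 3 and lowest in WT library 3, Rfx2 was highest in WT library 2, and Rfx3 was nearly flat. Some structural groups also lacked a part of the pattern. Of the 3 outer arm heavy chains, 0 were highest in WT library 1 and 2 were lowest in WT library 2. Of the 2 assembly and docking genes, 2 were highest in WT library 1 and 0 were lowest in WT library 2. WT library 1 exceeded WT library 2 by 1.29-fold for Foxj1, close to the 1.30-fold of Dnah6, and by 1.05-fold for Rfx3. By role group, the median gap between WT libraries 1 and 2 was 1.31-fold for outer arm heavy chains, 1.53-fold for inner arm heavy chains and 1.58-fold for the smaller dynein subunits. It was 1.70-fold for radial spokes, 1.56-fold for the central pair, 1.70-fold for Ccdc39, Ccdc40 and Ccdc113, and 1.86-fold for the tektins and other proteins. The dynein heavy chain Dnah11 was flat at 1.02-fold.

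**Figure D4:**
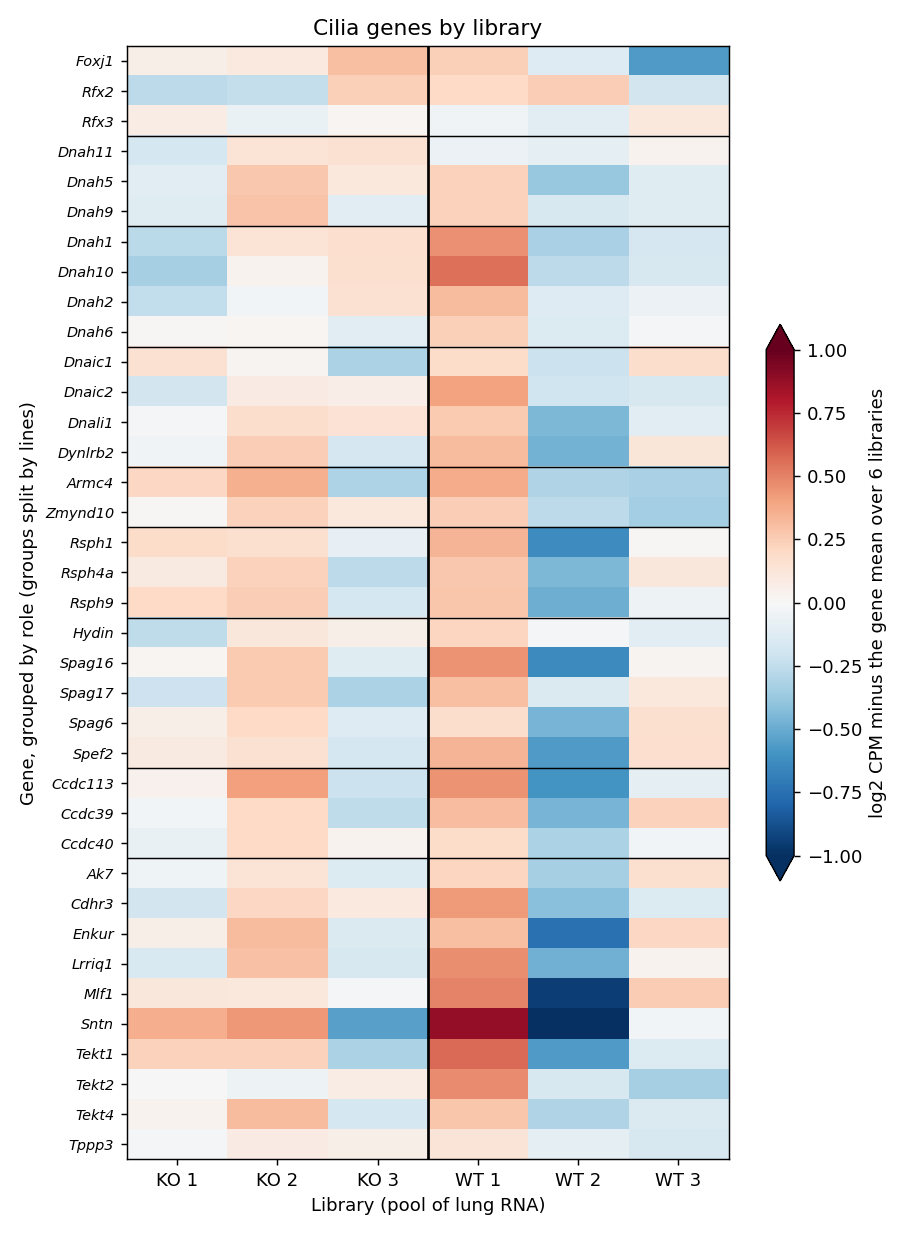
Heat map of log2 CPM minus each gene's mean over the 6 libraries, with KO libraries left of WT libraries and genes grouped by role; red is above the gene's mean and blue below, and values beyond 1 take the end colours. Most rows are red in WT 1 and blue in WT 2. Of the 3 regulators at the top, Foxj1 is bluest in WT 3, Rfx2 is red in both WT 1 and WT 2, and Rfx3 is pale throughout.

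Within the WT lungs, some lists of airway genes varied like the cilia genes and others did not. The summed level of the 37 genes was 1251, 1399 and 1298 CPM in KO lungs, against 1506, 1097 and 1195 CPM in WT lungs. The summed level of 7 club cell markers, the secretory cells of the small airways, was 36281, 31908 and 26051 CPM in KO lungs, against 37865, 25050 and 28708 CPM in WT lungs. Among the KO libraries this sum was highest in library 1, where the sum of the cilia genes was lowest. Scgb1a1 made up most of the club cell sum, with 27206, 23060 and 18626 CPM in KO lungs. Cbr2 and Aldh1a1 were also highest in KO library 1 among the KO libraries, while Scgb3a2, Cyp2f2, Scgb3a1 and Gabrp were highest in KO library 2. By gene, the median log2 deviation of the 37 cilia genes from the gene mean was -0.00023 in KO library 1 and -0.11 in KO library 3. Of the 7 markers, 3 were highest in WT library 1, against 27 of the 37 cilia genes. All 7 were lowest in WT library 2. All 6 secretory and goblet cell markers were lowest there too, with sums of 248, 821 and 654 CPM in KO lungs and 759, 140 and 522 CPM in WT lungs. Markers of basal cells, the stem cells of the large airways, went the other way. Their sum over 4 genes was 1.85, 12.4 and 12.1 CPM in KO lungs, against 12.5, 44.7 and 6.79 CPM in WT lungs, so WT library 2 was the highest. Of the alveolar markers, 0 of 5 type 1 and 2 of 5 type 2 genes were lowest in WT library 2. The type 2 sums were 33955, 34284 and 29885 CPM in KO lungs, against 26841, 27685 and 30118 CPM in WT lungs. Fat markers were highest in WT library 2 at 175 CPM, against 30.5 to 52.8 CPM in the other 5 libraries, as were the skeletal muscle markers given above. The part that the make-up of the tissue pieces played in the spread of the cilia genes was not tested.

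**Figure D5:**
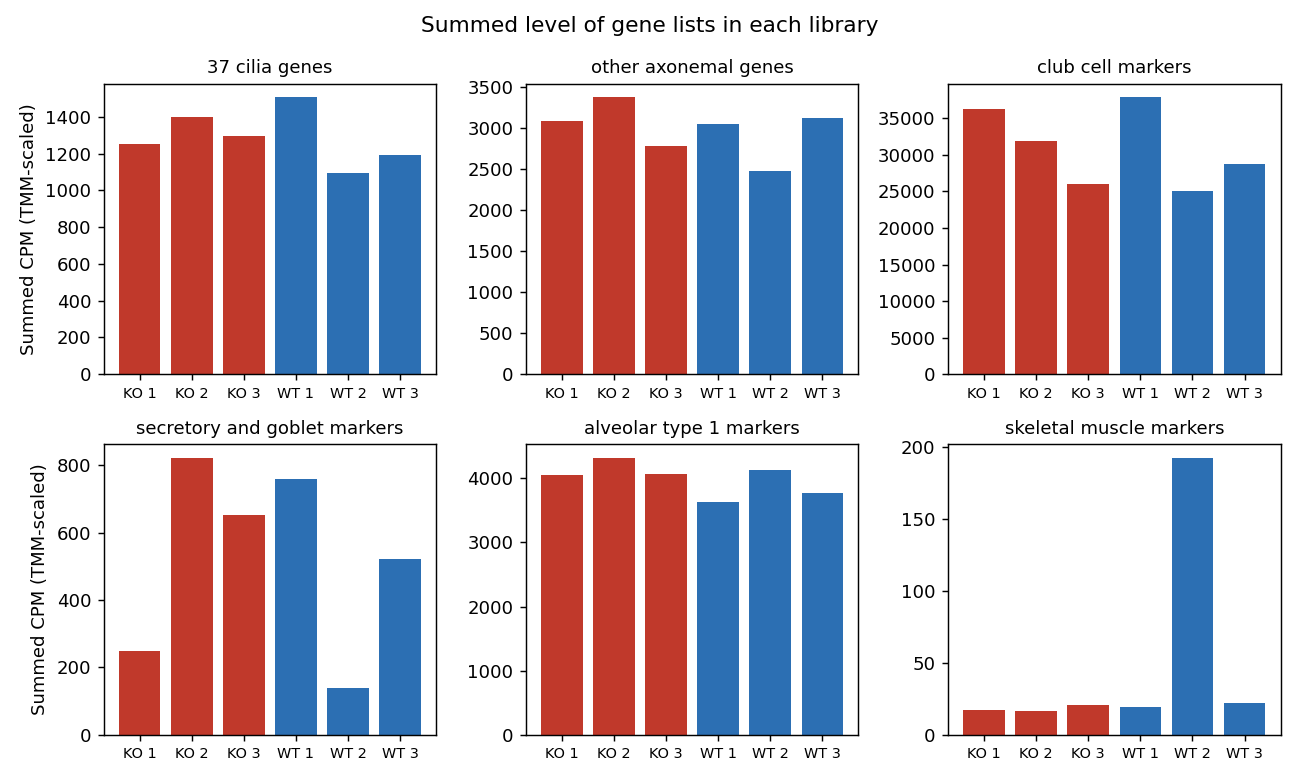
Summed CPM of 6 gene lists in each library, KO left of WT, each axis from 0. WT 1 is above WT 2 for the cilia genes, the other axonemal genes, the club cell markers and the secretory markers. It is below WT 2 for the alveolar type 1 and skeletal muscle markers. Sec14l3 alone makes up most of each bar of the other axonemal genes. It had 1919, 1720 and 2163 CPM in WT lungs, where the sums were 3040, 2476 and 3116 CPM.

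Base composition also moved with the libraries. Over all tested genes, the fifth with the highest GC content had a median deviation from the gene mean of 0.13 in KO library 3, 0.15 in WT library 2 and -0.14 in WT library 3 on the log2 scale. The fifth with the lowest GC content had -0.13 in KO library 3, -0.13 in WT library 2 and 0.11 in WT library 3. Among cilia genes at or below their median GC content, WT library 2 exceeded WT library 3 for 1 of 19, and above that median for 6 of 18. Of the regulators, Rfx2 had 58.5% GC and Rfx3 had 48.6%, against a median of 49.2% over the 37 genes. The part of GC content in the library pattern of the regulators was not tested. Foxj1, at 61.4% GC, was the richest of the set. With a correction for GC content, added after the data were seen, its log2 fold change was 0.30 and none of the 37 genes passed.

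The wider ciliary program held no called gene either. None of the genes of 7 further lists passed the test, and the share called among all genes was 0.00676%. Of 73 other axonemal genes tested, 40 were higher in KO lungs and 33 lower, and WT library 1 exceeded WT library 2 for 69 of them. Of 28 intraflagellar transport genes, which carry cargo along the cilium, 16 were higher and 12 lower. Of 13 Bardet-Biedl genes, whose products sort ciliary membrane proteins, 7 were higher and 6 lower. Of 11 centriole amplification genes, which multiply the basal bodies, 2 were higher and 9 lower. Of 15 dynein assembly and docking factors, 3 were higher and 12 lower, and of 12 ciliary tubulins and their partners, 5 were higher and 7 lower. Among all tested genes, 50.8% were higher in KO lungs. WT library 1 held the highest value for 6 of the 11 centriole genes, 10 of the 15 factors and 7 of the 12 tubulins and partners. That share was 15.1% over all tested genes. These directions were not tested.

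Of 11 regulators of multiciliogenesis, 6 were higher in KO lungs and 5 lower, and WT library 1 exceeded WT library 2 for 6 of them. Ccno, a cyclin needed for the making of many basal bodies, had the smallest p of that list. It had 5.27, 4.80 and 5.31 CPM in KO lungs, against 3.35, 3.55 and 2.92 CPM in WT lungs. These groups did not overlap, as was the case for 5.46% of all tested genes. The log2 fold change was 0.64 (SE 0.20), it rested on 25 to 58 counts a library, and the adjusted p of 0.9999 by edgeR's quasi-likelihood test did not pass.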

How the data were processed

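Whole-lung RNA of TSPO KO and WT mice was sequenced on an Illumina platform. The authors deposited raw read counts per transcript for 6 libraries, 3 a genotype, and the submitters' processing notes name TopHat and the mm10 build. TopHat's version, the counter and its strand setting were not stated. The table held 64529 entries, of which 33353 FANTOM3 clones were left out. Each of 23473 genes was represented by its transcript with the largest total.

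From these counts, edgeR 4.0.16 (R 4.3.3) was run with TMM scaling and its filter on low counts. The filter asked for a level worth 10 counts at the median library size in at least 3 libraries, and 15 counts in total. The quasi-likelihood test compared KO against WT, with Benjamini-Hochberg adjustment over 14802 genes and a threshold of 0.05. CPM used the TMM-scaled totals. Transcript lengths came from GENCODE annotation of GRCm38 and promoters from RefSeq. The code was tested on simulated data.

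Alternatives were RLE or no composition scaling, DESeq2 1.42.0, the edgeR exact test, limma-voom (limma 3.58.1), other filters, summed transcripts, every entry, removal of Rn45s and Lars2, leaving out each library, and the replicate number as a block. A correction for GC content (lowess, span 0.3) and the match of 7 heavy chains by accession were chosen later, with the data in view.

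The members and lists were chosen with earlier results of these data known. Values in every library are given for Foxj1, Rfx2 and Rfx3, for the gene with the highest level per kb in each role, for the 5 genes with the smallest p, for any whose groups did not overlap, and for any that passed or could not be tested; of related lists, up to 2 genes with the smallest p may be named. The pools of a genotype are separate pools of littermates, and p-values measure the spread between pools.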

Additional observations from a re-analysis of the deposited data

How the results depend on the processing

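The count of cilia genes called was 0 under every alternative that was run, and the count over all genes was 1 under each except without WT library 1, where it was 2 (range 1 to 2 with 1 library left out). The median log2 fold change of the 30 genes lay between 0.03 and 0.09 under the scalings, tests, filters and transcript choices, and between -0.13 (without WT library 2) and 0.24 (without WT library 1) with 1 library left out. With 1 library left out, the log2 fold change in KO over WT lungs took both signs for 28 of the 37 genes, and ran from -0.20 to 0.18 for Dynlrb2, -0.0978 to 0.38 for Rsph1, -0.16 to 0.19 for Rsph4a, -0.0196 to 0.37 for Rsph9, -0.28 to 0.072 for Ccdc39, -0.0268 to 0.23 for Ccdc40 and -0.11 to 0.44 for Ccdc113. It ran from -0.16 to 0.27 for Dnah1, -0.19 to 0.0638 for Dnah2, -0.14 to 0.0536 for Dnah6, -0.11 to 0.17 for Dnah9, -0.28 to 0.18 for Dnah10, -0.21 to 0.0323 for Dnaic1 and -0.17 to 0.17 for Dnaic2. The range was -0.20 to 0.42 for Tekt1, -0.17 to 0.25 for Tekt2, -0.0316 to 0.30 for Tekt4, -0.36 to 0.65 for Sntn, -0.13 to 0.33 for Cdhr3, -0.11 to 0.19 for Spag6 and -0.19 to 0.35 for Spag16. The last of these ranged from -0.13 to 0.0436 for Hydin, -0.23 to 0.21 for Spef2, -0.32 to 0.32 for Mlf1, -0.26 to 0.23 for Lrriq1, -0.20 to 0.0602 for Ak7, -0.16 to 0.31 for Enkur and -0.0238 to 0.0882 for Rfx3. With all libraries the largest of these 28 values was 0.16, and the other 9 genes kept their sign. Apart from left-out libraries, the sign changed for Dnah1 (0.0224 without composition scaling, 0.0193 with limma-voom, 0.0042 without a filter, 0.0198 with the replicate block, 0.0087 with every deposited entry), Lrriq1 (0.0012 with limma-voom) and Dynlrb2 (-0.0040 with the GC correction). The cause was not tested.

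The correlations of same-numbered KO and WT libraries were 0.12, -0.22 and -0.26, and those of differently numbered ones ran from -0.19 to 0.36. The labels do not say whether a number was shared by a litter or day, and these few correlations cannot settle it. With the replicate block, 1 gene passed over all genes and 0 of the 37 cilia genes did, with a median log2 fold change of 0.08 over the 30 genes. With 3 pools a genotype, the confidence interval of 10 of the 37 genes still held a 1.5-fold change.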
